A study of Drosophila melanogaster with 90 samples.

Results

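Heads of *Drosophila melanogaster* females frozen 2 h and 3 h after mating with a wildtype male were compared with heads of virgin females frozen at the same times. The comparison used 10 of the 87 libraries with a count column: 4 from wildtype-mated females (repeats A and B at each time) and 6 from virgins (repeats A, B and C at each time). The mated repeat C of both times was not analysed here. The females of all groups carry the genotype label Canton-S, a standard wildtype laboratory strain. They were kept at 25 °C on food made with yeast and glucose, under a light and dark cycle of 12 h each with lights on at 8 AM. Matings took place in a 3 h window between 8 and 11 AM. Another group, females mated to males without Sex Peptide (SP-null-mated), was frozen at the same times and is set beside the others below. The sources used here give neither the age of the flies nor the strain of the wildtype males. Each library holds poly(A)-selected RNA of whole heads, so a change in the number of cells of one type and a change in RNA per cell cannot be told apart. The entire time series was run 3 times, and the letters A, B and C name these repeats.

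At mating a female receives sperm and seminal fluid proteins. Among them is Sex Peptide, which acts through a receptor on neurons of the reproductive tract and alters egg laying, feeding, sleep and willingness to remate. A female that begins to lay draws on dietary amino acids and on stored lipid for her eggs. Ribosome production is a major cost of growth in any cell: RNA polymerase I transcribes the ribosomal RNA, small nucleolar ribonucleoproteins (snoRNPs) modify it at chosen bases, and the exosome and many assembly factors trim and package it. In flies the transcription factor Myc and the nutrient-sensing kinase TOR both promote that production.

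The 10 libraries held between 17417880 and 22355364 counts each, within the range of 15411046 to 103387056 over all 87. No pair of libraries of one group at 2 h or 3 h differed by as little as sampling noise (lowest chi-square per degree of freedom 15.2). On the first principal component of the 10 libraries, with 25.8% of the variance, virgins lay between -10.6 and -5.65 and mated libraries between 3.65 and 20.1, the last being repeat A at 3 h. Head tissue was recognisable in every library, with 28 photoreceptor genes summing to 51686 to 57672 normalised counts per 1e6 reads (CPM) in virgins and 48007 to 58318 in mated females. Fat body markers, 12 genes in the table, summed to 99820 to 165023 CPM in virgins and 131229 to 195397 in mated females, with both repeat A libraries above every virgin. Most of that sum came from the 3 yolk protein genes on the list, at 82302 to 139478 CPM in virgins and 111495 to 173364 in mated females. Of 17 eggshell and 14 germline markers, 3 each were in the table, at overlapping sums (26.1 to 35 against 26.7 to 34.7 CPM, and 456 to 510 against 456 to 471 CPM).

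The mated libraries of repeat A stood apart from the other mated pair in *tim*, *vri*, *per* and *Pdp1*, genes of the clock that keeps the daily rhythm. Expression of *tim* (timeless, the evening-phase repressor of the clock) was 5.82 and 5.81 log2 CPM in wildtype-mated repeat A at 2 h and 3 h, but 7.0 and 7.16 in repeat B. In virgins *tim* lay at 6.96, 7.05 and 6.99 at 2 h and at 7.60, 7.22 and 7.54 at 3 h. The values of *vri*, a clock repressor of *Clk*, were 5.35 and 5.98 in mated repeat A, 6.4 and 6.71 in mated repeat B, and between 6.49 and 7.05 in virgins. Mated repeat A was thus more than a log2 unit below every virgin in *tim*, while mated repeat B was within or close to the virgin range. Some SP-null-mated libraries were below the virgins of their time too: in repeats A, B and C *tim* lay at 7.0, 6.36 and 6.59 at 2 h and at 7.27, 7.35 and 6.62 at 3 h, and *vri* at 6.32, 5.64 and 6.0 at 2 h and at 6.95, 6.95 and 6.29 at 3 h. The clock gene *per* lay at 5.31 and 5.36 in mated repeat A, 5.67 and 6.11 in mated repeat B and 5.55 to 6.57 in virgins. *Pdp1* lay at 8.52 and 8.69 in mated repeat A, 8.86 and 8.94 in mated repeat B and 8.90 to 9.03 in virgins. In *cyc* and *cry* mated repeat A was close to repeat B (4.96 and 4.89 beside 4.91 and 4.96 for *cyc*, 7.79 and 7.62 beside 7.64 and 7.5 for *cry*). Neither *tim* nor *vri* was called between the groups (log2 differences -0.64 and -0.54, adjusted p 0.32 and 0.2). What sets these 2 libraries apart, and its part in the results below, was not tested. Within-repeat values, or values without these libraries, are given for the genes and lists described at most length; of all 325 genes called below, 42 were also called without these libraries.

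**Figure D1:**
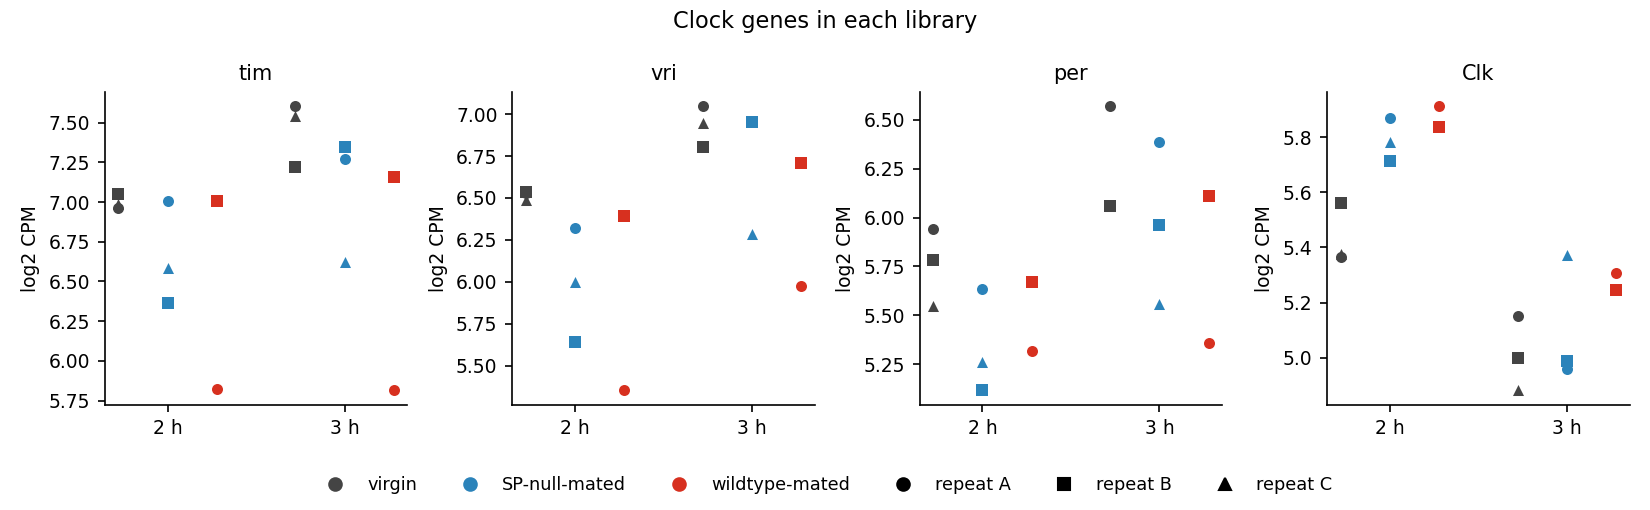
Expression (log2 CPM) of 4 clock genes in each library at 2 h and 3 h, with colour for the treatment and marker shape for the repeat. Wildtype-mated repeat A (red circles) lies at 5.82 and 5.81 for tim, below the virgins of both times (6.96 to 7.60), while repeat B (red squares) lies at 7.0 and 7.16.

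More genes were higher than lower in wildtype-mated heads, most of them by less than a factor of 2. With time point as a block, 325 of 9018 genes tested (3.6%) were called, meaning an adjusted p under 0.05 in edgeR's quasi-likelihood test. Of these, 247 were higher in mated females (2.74% of genes tested) and 78 lower (0.865%). The median log2 difference was 0.53 among the higher genes and -0.36 among the lower, against 0.00 over all genes tested, and 18 higher and 3 lower genes passed a log2 difference of 1. In 313 of the 325 called genes every mated library lay beyond every virgin library of its time at both 2 h and 3 h. Of all 9018 genes, 801 (8.88%) did so. Calls and separation come from the same libraries, so the separation is no further support for the calls. Genes named below for the largest differences had to show it, so for them it follows from the choice. The number of calls rested on the mated libraries of repeat A: without them 43 genes were called (0.477%; 34 higher, 9 lower), while without those of repeat B 326 were. With the repeat letter as a block, 156 genes were called (1.73%; 124 higher, 32 lower). Within repeat A the 247 higher genes had a median difference of 0.58 and within repeat B 0.41, and the 78 lower genes had -0.33 in both.

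**Figure D2:**
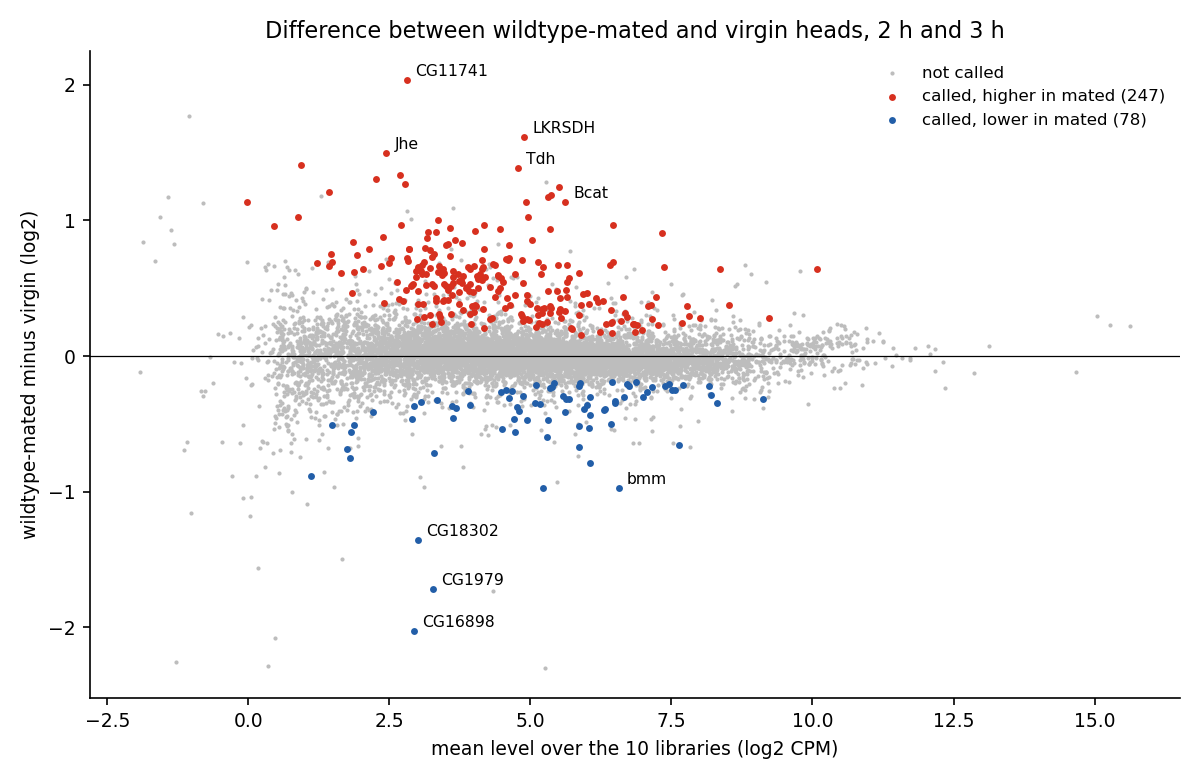
Log2 difference between wildtype-mated and virgin heads at 2 h and 3 h (vertical) against the mean level over the 10 libraries in log2 CPM (horizontal), 1 point per gene. Red points are the 247 genes called higher in mated females and blue points the 78 called lower; most calls lie within 1 log2 unit of 0, and labelled genes are among those with the largest differences.

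Most members of a ribosome biogenesis list were called. Of 34 tested, 21 were higher, 1 was lower and 12 were not called (64.7% called, beside 3.6% of all genes). The median log2 difference was 0.58 against 0.00 over all genes. The summed level of the list was 1423 to 1693 CPM in the 6 virgin libraries and 1787 to 2421 in the 4 mated libraries, with no overlap. The lower member was *Nop17l* (-0.50), whose product is an assembly cofactor of snoRNP proteins rather than part of the particles. The median difference was 0.62 within repeat A and 0.38 within repeat B. Without the mated libraries of repeat A, 4 members were called higher (median 0.43), and with the repeat as a block 9 were (median 0.52). The lists below for snoRNP cores, snoRNA hosts, polymerases, exosome and nucleostemin and RIO families were drawn up after values had been seen. Several of their called genes, among them *Fib*, *Nop60B*, *Polr1B* and *RIOK1*, are also in the ribosome biogenesis list. Shares of the lists that hold such genes are thus not separate from the share given here.

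All 4 proteins of the box C/D snoRNP core, the particle that methylates ribosomal RNA, were called higher, with a median of 1.08. *Fib* (fibrillarin, FBgn0003062) is its methyltransferase. In virgins *Fib* measured 22, 22.6 and 24.2 CPM at 2 h and 26, 21.4 and 18.4 CPM at 3 h (repeats A, B, C), against 43.1 and 31.8 CPM in mated females at 2 h and 81.2 and 46.6 CPM at 3 h (repeats A, B). Every mated library was above every virgin, and within each time repeat A was the higher of the mated pair. The log2 difference was 1.14 ± 0.21 (SE; adjusted p 0.0234), with 1.30 within repeat A and 0.81 within repeat B. The scaffold proteins *nop5* (1.17 ± 0.25, adjusted p 0.0431) and *Nop56* (1.02 ± 0.21, adjusted p 0.0322) and the RNA-binding protein *hoip* (0.95 ± 0.20, adjusted p 0.0322) followed the same pattern. Without mated repeat A the list's median was 0.82 with no member called, and with the repeat as a block it was 0.98 with no member called; adjusted p of *Fib* was then 0.0715 and 0.0603.

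In the box H/ACA snoRNP core, the particle that converts uridine to pseudouridine, *Nop60B* and *Nop10* were called and *NHP2* (0.71, adjusted p 0.083) and *Gar1* (0.58, adjusted p 0.12) were not. *Nop60B* (FBgn0259937) encodes the pseudouridine synthase, the fly dyskerin. It measured 32.7, 31 and 30.6 CPM in virgins at 2 h and 35.5, 26 and 23.9 CPM at 3 h, against 57.3 and 46.4 CPM in mated females at 2 h and 103 and 71.7 CPM at 3 h. The mated libraries lay above all virgins, and higher at 3 h than at 2 h, for a log2 difference of 1.18 ± 0.20 (adjusted p 0.0152; 0.0819 without mated repeat A and 0.0503 with the block). *Nop60B* overlaps a snoRNA gene on its own strand, so some of its reads may belong to that gene. *Nop10*, a small structural subunit, was higher by 0.54 ± 0.10 (adjusted p 0.0165). Host genes that release snoRNAs from their introns were measured too, and 2 of 6 were called (33.3%, beside 3.6% of all genes). *Uhg2* (FBgn0063449) stood at 4.40 to 5.6 CPM in the 6 virgin libraries and at 7.89, 8.37, 11.1 and 11.6 CPM in the mated ones, a log2 difference of 0.97 ± 0.11 (adjusted p 0.00127), and it stayed called without mated repeat A (1.01, adjusted p 0.0181) and with the block (0.97, adjusted p 0.00964). The other called host gene, *Uhg1*, was higher by 0.52 (adjusted p 0.0386; 0.147 without mated repeat A).

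RNA polymerase I, the enzyme of ribosomal RNA transcription, had 4 of 7 subunits called higher (57.1%, beside 3.6% of all genes). All 7 had a positive difference (median 0.59). Its summed level was 49.3 to 58.1 CPM in virgins and 67.1, 64.8, 113 and 84.9 CPM in mated repeats A and B at 2 h and A and B at 3 h. *Polr1B* (FBgn0003278), one of its large subunits, lay between 8.33 and 10.4 CPM in virgins and at 12.9, 13.3, 22.6 and 17.1 CPM in mated females. The mated values did not overlap the virgin ones, and those at 3 h exceeded those at 2 h. The log2 difference was 0.74 ± 0.13 (adjusted p 0.0144; 0.0473 without mated repeat A and 0.0562 with the block). *Polr1H* (1.02), *Polr1E* (0.60) and *Polr1C* (0.39), the last shared with RNA polymerase III, were also called, with adjusted p of 0.0857, 0.153 and 0.234 without mated repeat A. The level of *Polr1H* was near the floor, with a virgin mean of 0.39 log2 CPM at 2 h. RNA polymerase II had 2 of 11 subunits called (18.2%, median 0.06), *Polr2F* at 0.38 and *Polr2L* at 0.25. Both are shared by all 3 nuclear polymerases. RNA polymerase III had 0 of 9 called, with 9 positive differences and a median of 0.20.

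Factors of later ribosome assembly were called in 5 of 6 members of the nucleostemin and RIO kinase families (83.3%, beside 3.6% of all genes). Without mated repeat A 1 of the 6 was called, and with the block 3 were. *RIOK1* (FBgn0036187), a kinase that acts in the last steps of small subunit maturation, measured 5.80 to 8.77 CPM in the 6 virgin libraries and 12.6, 11.3, 14.8 and 12.6 CPM in the mated ones. Its log2 difference was 0.87 ± 0.10 (adjusted p 0.00127), at 0.98 within repeat A and 0.56 within repeat B, and it was called without mated repeat A (adjusted p 0.0313) and with the block (adjusted p 0.00519). *bys* (bystin), another small subunit factor, measured 13.7 to 16.3 CPM in virgins and 20.3 to 27.3 CPM in mated females, a log2 difference of 0.64 ± 0.07 (adjusted p 0.00127; 0.0225 without mated repeat A and 0.00519 with the block). The GTPases *Ns3* (0.57), *Ns1* (0.54) and *Ns2* (0.37) and the kinase *RIOK2* (0.50) were called, and *Ns4* was at -0.01. Without mated repeat A the adjusted p was 0.0569 for *Ns3*, 0.0581 for *Ns1* and 0.0761 for *RIOK2*. Of the RNA exosome, the complex that trims ribosomal RNA precursors, 3 of 10 subunits were called: *Rrp46* (0.70), *Rrp42* (0.62) and *Rrp4* (0.60). All 10 had positive differences, with a median of 0.35. Without mated repeat A 0 of the 10 were called (median 0.29), and with the block 1 was (median 0.33).

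The genes for the ribosome's own proteins and for the translation machinery were mostly not called. Of 84 cytosolic ribosomal protein genes none was called (82 positive, median 0.09), and in DESeq2 none was either. Their median was 0.23 within repeat A and -0.08 within repeat B, and 4 were called without mated repeat B. Of 71 mitochondrial ribosomal protein genes 2 were called (2.82%, beside 3.6% of all genes), *mRpL12* (0.27) and *mRpL52* (0.23), and 58 were positive. Translation initiation and elongation factors had 1 of 33 called (3.03%), *eIF2alpha* (0.24), with 32 differences positive. Aminoacyl-tRNA synthetases had 1 of 32 called (3.125%), *LysRS* (0.19), with 21 positive. The TRiC chaperonin list had 1 of 14 called (7.14%), *CCT8* (0.21), with 13 positive. Oxidative phosphorylation had 1 of 66 called (1.52%), *COX7AL2* (0.28), with 65 positive and a median of 0.11. Its summed level was 15480 to 16616 CPM in virgins and 17302 to 18459 in wildtype-mated females, with no overlap. All called genes named in this paragraph were higher. Of all 9018 genes tested, 4518 had a positive difference.

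**Figure D3:**
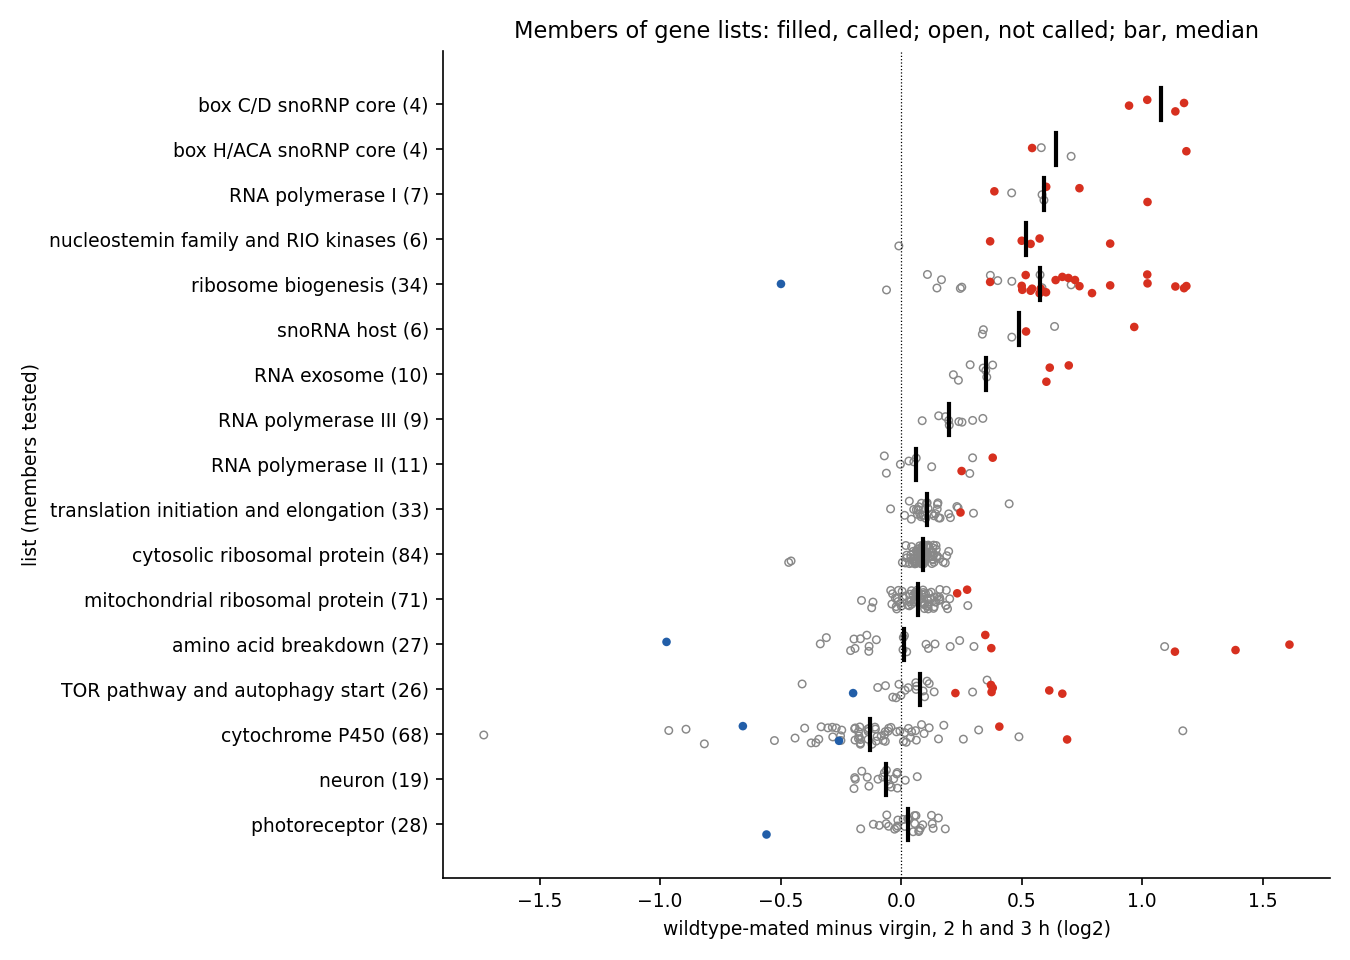
Log2 differences between wildtype-mated and virgin heads at 2 h and 3 h for members of 17 gene lists, with red for members called higher, blue for called lower, open circles for members not called and a bar at the list's median. The 4 box C/D core genes have a median of 1.08 and RNA polymerase I one of 0.59, while the 84 cytosolic ribosomal proteins sit near 0.09. Some genes stand in more than 1 list.

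*Myc* (FBgn0262656, chromosome X, 3373159 to 3391697) was higher in mated heads. It measured 51.3, 47.9 and 41.7 CPM in virgins at 2 h and 40.5, 37.9 and 33.5 CPM at 3 h, against 81.9 and 85.4 CPM in mated females at 2 h and 55.1 and 50 CPM at 3 h. The mated libraries exceeded the virgins of their own time at both times, and both groups were lower at 3 h. The log2 difference was 0.67 ± 0.08 (adjusted p 0.00254), close to equal within repeat A (0.56) and repeat B (0.61), and 0.65 without mated repeat A (adjusted p 0.0564). *Myc* overlaps a long noncoding RNA gene on its own strand. In a list of 26 genes of the TOR pathway and the start of autophagy, 6 were called higher and 1 lower (26.9%, beside 3.6% of all genes). This list was drawn up after values had been seen, and its member *Myc* is also in the ribosome biogenesis list. The list's median was 0.08. The higher ones were *Myc*, *PRAS40* (0.61), an inhibitor of TOR, *S6k* (0.37), the ribosomal protein kinase downstream of TOR, the related kinase *S6KL* (0.38), and *Atg101* (0.38) and *Atg1* (0.23) of the kinase complex that starts autophagy. The lower one, *Atg13* (-0.20), belongs to that same complex. *Atg101* measured 55.4 to 63.3 CPM in virgins and 81.8, 85.2, 74.2 and 68.6 CPM in mated females (adjusted p 0.00355; 0.0529 without mated repeat A). Adjusted p of *S6k* without mated repeat A was 0.169 and that of *S6KL* 0.109. Without mated repeat A 0 of the 26 were called, and with the block 3 were.

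Enzymes that break down amino acids held some of the largest differences, although most members of the list were not called. Of 27 tested members 5 were higher and 1 was lower (22.2%, beside 3.6% of all genes), and the median was 0.01. The list was drawn up after values had been seen. *LKRSDH* (FBgn0286198, chromosome 2L, 7791175 to 7795959, minus strand) encodes the bifunctional enzyme of the first steps of lysine degradation. It measured 15.1, 17.3 and 17.7 CPM in virgins at 2 h and 23.7, 18.4 and 21.9 CPM at 3 h, against 59.6 and 54.4 CPM in mated females at 2 h and 67.1 and 49.9 CPM at 3 h. Every mated library was far above every virgin. The difference was 3.05-fold, or 1.61 ± 0.11 in log2 (adjusted p 4.39e-05), with 1.73 within repeat A and 1.54 within repeat B. *LKRSDH* was called under every one of 21 alternative settings, including without mated repeat A (1.47, adjusted p 0.00162) and with the block (1.64, adjusted p 0.000359). A long noncoding RNA gene lies on the opposite strand of *LKRSDH*.

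*Tdh* (FBgn0036997, chromosome 3L, 20466944 to 20469592), which encodes threonine dehydrogenase, was 2.62-fold higher. Its levels were 15.2, 17.4 and 22.9 CPM in virgins at 2 h and 23.8, 15 and 18.7 CPM at 3 h, and 55.7 and 52.6 CPM in mated females at 2 h and 54.1 and 35.1 CPM at 3 h. The groups did not overlap, and the rule for naming *Tdh* asked for this within each time. Its log2 difference was 1.39 ± 0.17 (adjusted p 0.00477), and 1.21 without mated repeat A (adjusted p 0.0715). *Bcat* (FBgn0030482, chromosome X, 13396899 to 13401224), the transaminase that opens the breakdown of leucine, isoleucine and valine, measured 45.9, 34.7 and 36.7 CPM in virgins at 2 h and 37, 31.7 and 31.7 CPM at 3 h. In mated females it measured 118 and 88.6 CPM at 2 h and 67.6 and 53.3 CPM at 3 h, all above the virgins, with a log2 difference of 1.14 ± 0.14 (adjusted p 0.00477; 0.0402 without mated repeat A and 0.00519 with the block). The next enzymes of that route were not called: *BckdhA* was at 0.20 and *BckdhB* at 0.01. *Sam-S* (0.37), which makes S-adenosylmethionine, and *Cbs* (0.35), which leads homocysteine to cysteine, were called with adjusted p of 0.047 each. *Gnmt*, which consumes S-adenosylmethionine, was at 1.09 without a call (adjusted p 0.058). The tyrosine route was not called either, with *Hpd* at -0.14, *hgo* at -0.34 and *Faa* at -0.13.

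Among called genes with large decreases were *Srr* and *P5cr-2*. *Srr*, serine racemase, measured 33.6, 55.2 and 54.4 CPM in virgins at 2 h and 51.3, 48.3 and 57 CPM at 3 h, against 35.2 and 20.2 CPM in mated females at 2 h and 28.2 and 18.4 CPM at 3 h. The groups overlapped at 2 h, where virgin repeat A was below mated repeat A. Its log2 difference was -0.97 ± 0.21 (adjusted p 0.042), at -0.40 within repeat A and -1.41 within repeat B, with an adjusted p of 0.0529 without mated repeat A and 0.119 under the block; *FER* lies on the opposite strand of *Srr*. *P5cr-2*, a pyrroline-5-carboxylate reductase of proline synthesis, measured 68.1 to 94.9 CPM in virgins and 39.6, 43.3, 51.7 and 60.1 CPM in mated females. It was lower in every mated library (-0.79 ± 0.09, adjusted p 0.00243; 0.0567 without mated repeat A). On the other strand *P5cr-2* overlaps a ribosome biogenesis gene that was called higher. Amino acid transport and stress genes were called in 2 of 17 cases (11.8%, beside 3.6% of all genes), the transporter gene *mnd* (0.25) and *CG8785* (-0.34).

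**Figure D4:**
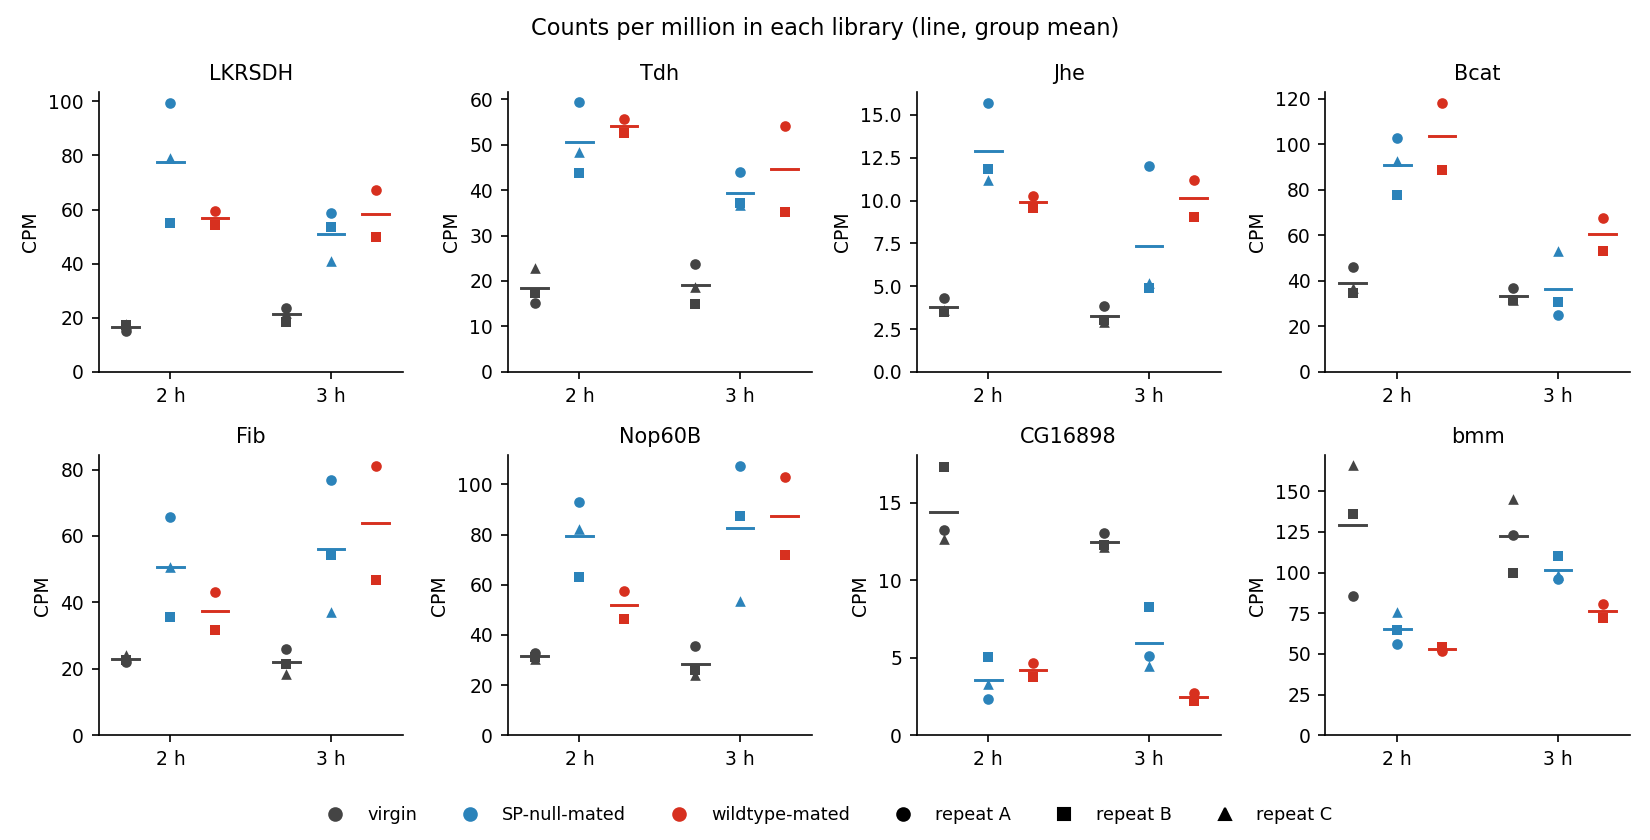
CPM of 8 genes in each library at 2 h and 3 h, with colour for the treatment, marker shape for the repeat and a line at the group mean. For LKRSDH the wildtype-mated libraries lie between 49.9 and 67.1 CPM and the virgins between 15.1 and 23.7, and for CG16898 the mated libraries lie between 2.22 and 4.68 CPM and the virgins between 12.1 and 17.3.

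Among genes of hormone and growth signals, the juvenile hormone list had 2 of 13 members called (15.4%, beside 3.6% of all genes), both higher. *Jhe* (FBgn0010052) encodes juvenile hormone esterase, which degrades the hormone. Its level was low but separate in the groups: 4.31, 3.49 and 3.63 CPM in virgins at 2 h and 3.82, 3.03 and 2.93 CPM at 3 h, against 10.3 and 9.57 CPM in mated females at 2 h and 11.2 and 9.04 CPM at 3 h. The difference was 2.82-fold (log2 1.49 ± 0.11, adjusted p 4.39e-05), at 1.38 within repeat A and 1.49 within repeat B, and *Jhe* was called under all 21 alternatives. *Kr-h1*, a transcription factor gene that juvenile hormone induces, measured 19.9, 19.4 and 19.5 CPM in virgins at 2 h and 17.2, 15.4 and 18.3 CPM at 3 h. In mated females it measured 38.4 and 34.6 CPM at 2 h and 21.6 and 18.8 CPM at 3 h. The gap was wide at 2 h and narrow at 3 h (log2 0.89 and 0.25), and the change between the times was not called (adjusted p 0.254). Over both times the log2 difference was 0.59 ± 0.12 (adjusted p 0.0198; 0.159 without mated repeat A and 0.0565 with the block). *Kr-h1* overlaps *CG45075* on its own strand. The receptor genes *Met* (-0.04) and *gce* (-0.24) were not called.

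Among 17 genes of the insulin pathway and its targets *Ilp6* and *bmm* (described below) were called (11.8%, beside 3.6% of all genes). *Ilp6*, an insulin-like peptide gene of the fat body, was higher. Its level was 32.8 to 48.9 CPM in virgins and 60.5, 59.2, 70.8 and 61.9 CPM in mated females (log2 0.55 ± 0.10, adjusted p 0.0165; 0.204 without mated repeat A and 0.0633 with the block). *dsx* (doublesex), the transcription factor at the end of the sex determination cascade, measured 33.5, 39 and 34.5 CPM in virgins at 2 h and 43.8, 38.3 and 35.4 CPM at 3 h, against 75.1 and 65 CPM in mated females at 2 h and 49 and 50.3 CPM at 3 h. All mated libraries exceeded all virgins (log2 0.67 ± 0.12, adjusted p 0.0164; 0.0715 without mated repeat A and 0.0723 with the block). The opposite strand of *dsx* holds *lds*. *dsx* was also the member called of 5 genes of the Sex Peptide pathway (20%). Of the 11 sex determination genes (18.2% called, beside 3.6% of all genes) 1 more was called, *Sxl*, the splicing factor at the head of that cascade. *Sxl* was lower by a small amount (-0.21, adjusted p 0.0497) and was called in 4 of 21 alternatives. Among 16 ecdysone genes *Eip93F* and *MsrA* were called (12.5%, beside 3.6% of all genes). *Eip93F*, an ecdysone-induced transcription factor gene, was lower and *MsrA* (0.24), a methionine sulfoxide reductase gene, higher. *Eip93F* stood at 325 to 380 CPM in virgins and at 261, 276, 286 and 277 CPM in mated females (-0.34 ± 0.05, adjusted p 0.00796; 0.0438 without mated repeat A and 0.0323 with the block).

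Of 8 core clock genes, *Clk*, the activator that drives *per* and *tim*, was the member called (12.5%, beside 3.6% of all genes). It measured 41.1, 47.1 and 41.4 CPM in virgins at 2 h and 35.5, 31.9 and 29.4 CPM at 3 h, against 60.1 and 57 CPM in mated females at 2 h and 39.5 and 37.9 CPM at 3 h. Unlike *tim* and *vri*, *Clk* was alike in mated repeats A and B, and above the virgins of its time in both. The log2 difference was 0.36 ± 0.06 (adjusted p 0.0135, or 0.137 without mated repeat A and 0.0503 with the block). *cwo*, another core clock gene, lay at 6.97 and 7.08 log2 CPM in mated females at 2 h. Virgins then lay at 6.29, 6.42 and 6.38. At 3 h the mated values of *cwo* were 6.14 and 6.50, beside 6.52, 6.43 and 6.31 in virgins. Tested singly by time, 2 of the 8 were called higher at 2 h (beside 0.732% of all genes), 2 at 1 h (beside 0.443%) and 0 at 3 h. *Cipc* (FBgn0051324, chromosome 3R, 26106868 to 26130674), named for a vertebrate protein that binds CLOCK, measured 28.3, 30.2 and 30.3 CPM in virgins at 2 h and 37.4, 36.1 and 32.5 CPM at 3 h. In mated females it measured 99.2 and 92 CPM at 2 h and 56.6 and 63.7 CPM at 3 h, above every virgin. Its log2 difference over both times was 1.25 ± 0.16 (adjusted p 0.00496), with 1.20 within repeat A and 1.21 within repeat B, and it was called without mated repeat A (adjusted p 0.0226).

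The largest upward log2 difference of any called gene belonged to *CG11741* (FBgn0040531, chromosome 3R, 8528423 to 8528877, minus strand). It stood at 3.43 to 5.93 CPM in the 6 virgin libraries, at 37.6 and 25.8 CPM in mated females at 2 h and at 7.07 and 7.35 CPM at 3 h. The mated libraries were all above the virgins, by much more at 2 h (log2 3.10) than at 3 h (0.65), though that change was not called (adjusted p 0.0702). Over both times the difference was 2.03 ± 0.44 (4.09-fold, adjusted p 0.044), and it was called in 6 of 21 alternatives, with an adjusted p of 0.112 under the block. *Srg1*, a sugar-regulated gene, was the called member of 19 sugar response genes (5.26%) and of 12 fat body markers (8.33%), beside 3.6% of all genes. It stood at 3.29 to 7.98 CPM in virgins and at 9.74, 8.02, 17.6 and 11.4 CPM in mated females (1.33 ± 0.30, adjusted p 0.0443; 0.249 without mated repeat A), and the opposite strand holds *CG7016*. The fat body sum, most of it from yolk protein genes, was also highest in the mated repeat A libraries, and its part in this difference was not tested. *CG7458* (1.30 ± 0.19, adjusted p 0.00735) stood at 2.29 to 4.29 CPM in virgins and 6.18 to 11.4 CPM in mated females. Its adjusted p was 0.0591 without mated repeat A and 0.0309 with the block. *Obp83ef* was the called member of 24 odorant binding protein genes (4.17%, beside 3.6% of all genes). It stood at 3.70 to 5.50 CPM in virgins and at 12.8, 7.27, 17.3 and 9.82 CPM in mated females. Mated repeat A was the higher at both times, with a difference of 1.55 within repeat A and 0.89 within repeat B (1.27 ± 0.22, adjusted p 0.0144; 0.0566 without mated repeat A). It overlaps *Obp83cd* on the other strand.

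Genes lower in mated heads were fewer and had smaller differences, apart from 3 genes with log2 differences past -1. *CG16898* (FBgn0034480) measured 13.2, 17.3 and 12.7 CPM in virgins at 2 h and 13, 12.3 and 12.1 CPM at 3 h, against 4.68 and 3.74 CPM in mated females at 2 h and 2.74 and 2.22 CPM at 3 h. The groups lay far apart, and the log2 difference was -2.03 ± 0.14 (adjusted p 4.39e-05), at -1.85 within repeat A and -2.30 within repeat B. *CG16898* was called under all 21 alternatives. *CG1979* (FBgn0026563, chromosome 3R, 7054586 to 7058671) varied more among virgins, from 9.32 to 24.3 CPM with repeat C the highest at both times. In mated females it lay at 4.19, 5.93, 4.39 and 4.61 CPM, below all virgins (-1.72 ± 0.27, adjusted p 0.0108; 0.165 without mated repeat A and 0.00309 with the block). *CG18302* (FBgn0032266, chromosome 2L, 10534322 to 10536587) stood at 9.32 to 14.2 CPM in virgins and at 2.34, 5.03, 4.82 and 6.30 CPM in mated females (-1.36 ± 0.21, adjusted p 0.01; 0.0569 without mated repeat A).

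The lipid storage and fatty acid synthesis lists had 1 of 14 tested members called each (7.14%, beside 3.6% of all genes), both lower. *bmm* (brummer, the fly adipose triglyceride lipase, which releases stored fat) measured 85.7, 136 and 166 CPM in virgins at 2 h and 123, 99.9 and 145 CPM at 3 h, against 51.6 and 54.2 CPM in mated females at 2 h and 80.4 and 72.3 CPM at 3 h. Every mated library was below every virgin, while the virgins spread widely at 2 h. The log2 difference was -0.98 ± 0.21 (adjusted p 0.0386; 0.243 without mated repeat A and 0.0938 with the block). *bmm* is the called member of the storage list. *bond*, a fatty acid elongase gene, is that of the synthesis list, at 51.3 to 60.6 CPM in virgins and 37.9 to 43.9 CPM in mated females (-0.42 ± 0.06, adjusted p 0.00584; 0.0715 without mated repeat A). Outside these lists the acyl-CoA synthetase genes *bgm* (0.64) and *Acsf2* (0.48) were called higher, named after their values were seen.

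Peptidoglycan recognition genes were called in 2 of 8 cases (25%), both lower, beside 3.6% of all genes. *PGRP-LC*, the receptor that detects bacterial peptidoglycan for the Imd pathway, stood at 63.5 to 75.5 CPM in virgins and at 53.6, 56.3, 55.9 and 54.3 CPM in mated females (-0.36 ± 0.05, adjusted p 0.00584; 0.0572 without mated repeat A). Its neighbour *PGRP-LF*, which restrains that receptor, was lower by nearly the same amount (-0.37 ± 0.08, adjusted p 0.0243). The other 6 tested peptidoglycan recognition genes were not called. None of 13 antimicrobial peptide genes was called; *Dro* had the largest difference (1.28, adjusted p 0.13). The median of these 13 genes differed between times and repeats: -0.99 within repeat A and -0.38 within repeat B at 2 h, and 1.32 and 0.11 at 3 h. Tested singly by time, 2 of the 13 were called higher at 3 h, 0 at 2 h and 1 h, and 3 lower at 4 h. Of 68 cytochrome P450 genes (5.88% called) 2 were lower, *Cyp28d1* (-0.66, adjusted p 0.252 without mated repeat A) and *Cyp6a23* (-0.26), and 2 higher, *Cyp4d21* (0.69) and *Cyp4s3* (0.41). Glutathione transferases had 2 of 29 lower (6.9%), *GstE8* (-0.46) and *GstT3* (-0.38), and glucuronosyltransferases 2 of 19 lower (10.5%), *Ugt35C1* (-0.53) and *Ugt301D1* (-0.32). Other called genes with the largest decreases were *comm2* (-0.71), *CG8112* (-0.67), the peptidase gene *Nepl6* (-0.60), *CG9664* (-0.56) and *CG9521* (-0.54). *Nepl6* stood at 42.2 to 53.3 CPM in virgins and 29.1 to 33.1 CPM in mated females, and it was called without mated repeat A (adjusted p 0.0246) and with the block (adjusted p 0.00917).

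No member was called among 16 activity-regulated genes, 26 neuropeptide genes, 12 monoamine genes, 19 neuron, 14 glia and 18 muscle markers or 11 chemoreceptor genes. Of 28 photoreceptor genes *ninaD* (-0.56, adjusted p 0.0353), a carotenoid uptake receptor, was called, which is 3.57% of them beside 3.6% of all genes. Medians of these lists lay between -0.06 and 0.03. Nor was any member called among 11 hemocyte, 4 midgut, 3 eggshell or 3 germline markers, 3 yolk protein genes, 4 Turandot stress genes, 11 heat shock genes, 24 endoplasmic reticulum folding genes, 31 proteasome genes or 14 Bomanin and Daisho genes. For the 3 yolk protein genes the median difference was 0.60 within repeat A and 0.14 within repeat B.

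The 2 time points were also tested separately in the 10 libraries. At 2 h 87 genes were called (0.965%; 66 higher, which is 0.732% of genes tested) and at 3 h 294 (3.26%; 260 higher, 2.88%). Members of the ribosome biogenesis list were called higher in 3 cases at 2 h (median 0.32) and in 29 at 3 h (median 0.73), and box C/D core members in 0 (median 0.59) and 4 (median 1.49). *nop5* was at 0.61 and 1.70, *Nop60B* at 0.72 and 1.62 and *Polr1B* at 0.41 and 1.05. *Myc* went the other way, with 0.83 and 0.50, as did *dsx* with 0.97 and 0.35. The change itself was called for 1 gene of 9018 (0.0111%): *Cipc*, at 1.69 ± 0.08 at 2 h and 0.77 ± 0.08 at 3 h, a change of -0.92 (adjusted p 0.0381). For the ribosome genes named here a change between the times was not called, with adjusted p of 0.395 for *Polr1B*, 0.442 for *Nop60B* and 0.502 for *nop5*.

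Libraries at 1 h and 4 h, which the comparison did not use, place these genes in time. At 1 h 48 of 9024 genes were called (0.532%; 40 higher, 0.443%, and 8 lower, 0.0887%), and 18 of the 247 genes higher at 2 h and 3 h (7.29%) were among the 40. At 4 h 32 genes were called (0.355%; 14 higher, 0.155%, and 18 lower, 0.199%), and 3 of the 247 (1.21%) were among the 14. The median difference of the 247 genes was -0.03 at 1 h and 0.21 at 4 h. Of the 78 lower genes 1 was called lower at 1 h (1.28%) and 5 at 4 h (6.41%), with medians of -0.12 and -0.18. A fit of the 4 h libraries alone called 16 genes higher and 87 lower.

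At the other times more of these genes were called from 5 h on than at 0.5 h, in further libraries that the comparison did not use. Of the 247 genes 4 were called higher at 0.5 h (1.62%, beside 0.177% of all genes), 53 at 5 h (21.5%, beside 1.97%), 19 at 6 h (7.69%, beside 0.787%), 64 at 8 h (25.9%, beside 2.25%), 70 at 12 h (28.3%, beside 4.18%) and 47 at 24 h (19%, beside 14.6%). At 24 h 14 of the 247 were called lower, and at 12 h 2. Of the 78 lower genes 0 were called lower at 0.5 h (beside 0.0887% of all genes), 9 at 5 h (11.54%, beside 0.698%), 5 at 6 h (6.41%, beside 0.266%), 26 at 8 h (33.3%, beside 1.42%), 21 at 12 h (26.9%, beside 2.14%) and 25 at 24 h (32.1%, beside 14.6%), where 7 were called higher. The number of genes called over all genes also differed between these times, from 24 at 0.5 h to 2638 at 24 h.

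*Myc* was at 1.24 at 1 h (adjusted p 8.42e-05) and 0.19 at 4 h (adjusted p 0.711), and *Cipc* at 1.36 (adjusted p 3.64e-06) and 0.34 (adjusted p 0.425). *Kr-h1* (0.95, adjusted p 3.02e-05), *dsx* (0.62, adjusted p 0.00381), *Clk* (0.44, adjusted p 0.0108) and *Bcat* (1.15, adjusted p 0.032) were also called at 1 h. Of 26 TOR and autophagy genes 8 were called higher at 1 h, *Myc* among them, beside 40 of all 9024 genes (0.443%).

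The ribosome production genes were mostly not called at 1 h or 4 h. The median of the ribosome biogenesis list was -0.20 at 1 h and 0.25 at 4 h. At 1 h 1 member was called higher, *Myc*, and at 4 h 3 were. *Fib* was at -0.30 and 0.79, *Nop60B* at -0.50 and 0.57, and *Polr1B* at -0.21 and 0.41, with none of these called. *hoip* was called at 4 h (0.92, adjusted p 0.026). *LKRSDH* was called at both flanking times, at 1.03 (adjusted p 0.00645) and 0.96 (adjusted p 0.0307), while *Tdh* was at 0.15 and 0.90 and *Jhe* at 0.29 and 1.05 without a call. *CG16898* was at -0.53 and -0.97 without a call, and *CG8112* was called lower at 4 h (-1.24, adjusted p 9.7e-05), as was *Nepl6* (-0.69, adjusted p 0.017). Later, in wildtype-mated females against virgins, *LKRSDH* stood at 1.95 at 8 h and 1.06 at 24 h, *Tdh* at 1.78 and -0.12, *Nop60B* at 0.57 and -0.06, and *CG16898* at -1.82 and -3.20.

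**Figure D5:**
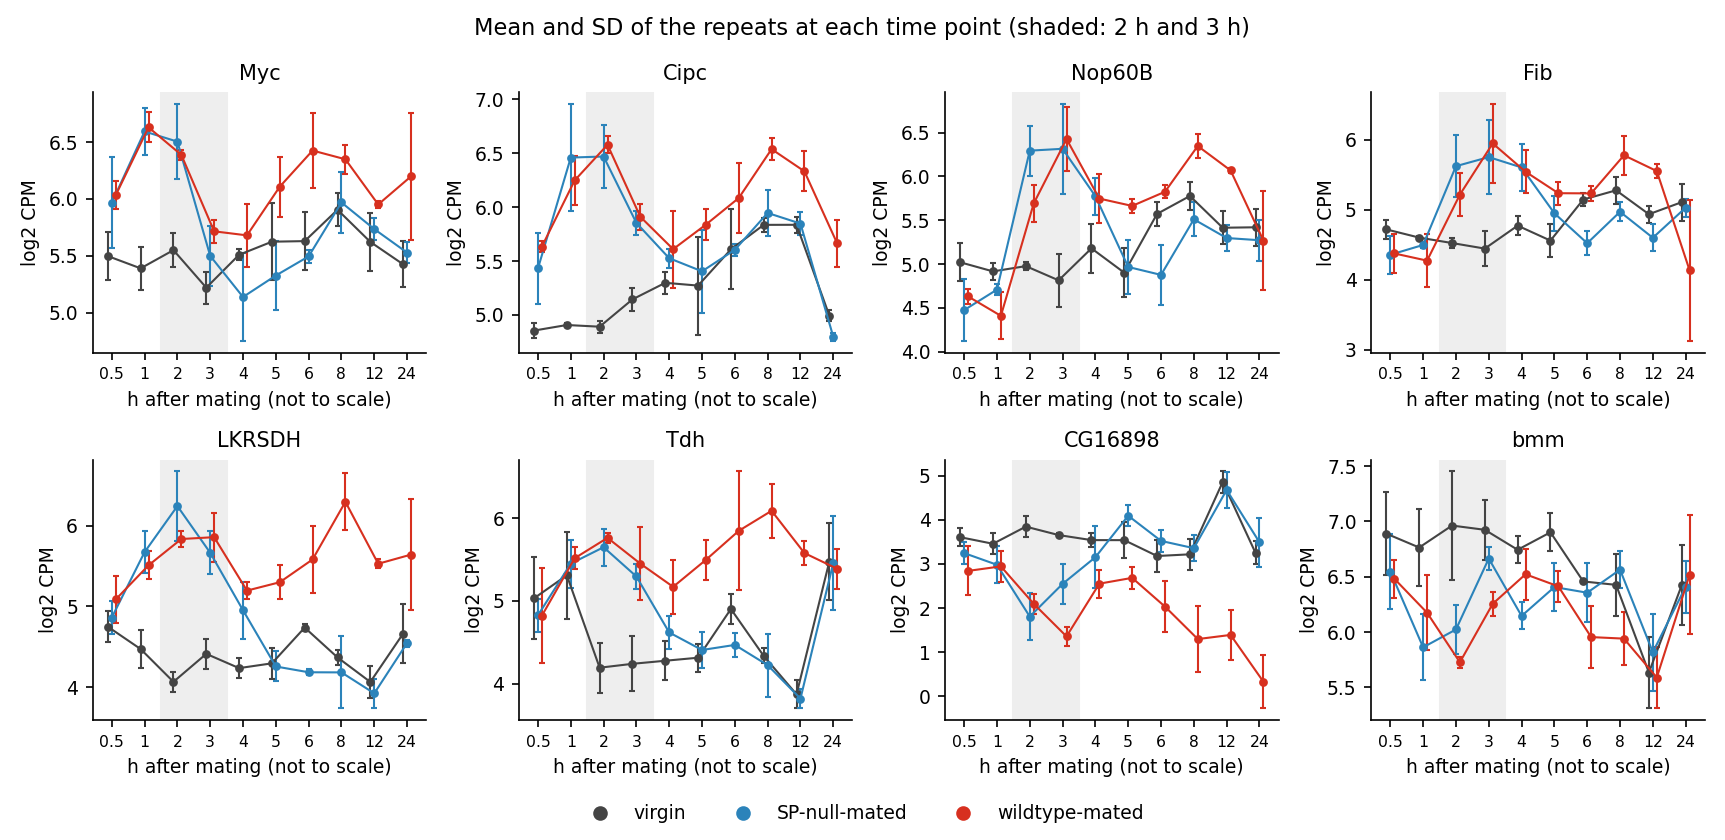
Mean log2 CPM of 8 genes at each time point after mating in virgin, SP-null-mated and wildtype-mated heads; error bars are the SD of the 2 or 3 repeats, the shaded band marks 2 h and 3 h, and time is not to scale. The difference of Myc between wildtype-mated and virgin heads is 1.24 at 1 h and that of Nop60B is -0.50, while at 3 h they are 0.50 and 1.62.

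Females mated to males without Sex Peptide were measured at the same times, and their difference from virgins uses the same 6 virgin libraries, so only values are set side by side. In SP-null-mated against virgin heads 507 of 9015 genes were called (5.62%). *LKRSDH* was at 1.74 there, with 99.2, 55 and 78.9 CPM at 2 h and 58.6, 53.6 and 41.2 CPM at 3 h, beside 1.61 in wildtype-mated heads. *Fib* was at 1.25 beside 1.14, *Nop60B* at 1.44 beside 1.18, *Polr1B* at 0.99 beside 0.74, *Myc* at 0.64 beside 0.67, *Jhe* at 1.49 beside 1.49 and *CG16898* at -1.54 beside -2.03. Some genes called with wildtype males were not called with SP-null males: *Bcat* was at 0.69 (adjusted p 0.168) beside 1.14, *Kr-h1* at 0.22 (adjusted p 0.343) beside 0.59, *CG1979* at -0.80 (adjusted p 0.17) beside -1.72, *Eip93F* at -0.15 (adjusted p 0.0968) beside -0.34 and *PGRP-LC* at -0.19 (adjusted p 0.145) beside -0.36.

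The mated groups were compared directly as well, wildtype-mated against SP-null-mated at 2 h and 3 h with time as a block. Of 9019 genes 0 were called (0%) in edgeR, 429 had an unadjusted p under 0.05, and DESeq2 called 3. The log2 difference between the mated groups was -0.12 ± 0.20 (SE) for *LKRSDH*, 0.14 ± 0.12 for *Tdh*, 0.02 ± 0.28 for *Jhe*, -0.11 ± 0.29 for *Fib*, -0.26 ± 0.24 for *Nop60B* and 0.03 ± 0.14 for *Myc*. For the genes that differed in call, it was 0.45 ± 0.22 for *Bcat*, 0.37 ± 0.10 for *Kr-h1*, -0.91 ± 0.24 for *CG1979* and -0.20 ± 0.05 for *Eip93F*, each with an adjusted p of 0.936. With 4 and 6 libraries, these errors leave room for differences between the mated groups as large as several of the smaller differences from virgins reported above.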

How the data were processed

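The authors deposited raw counts of reads per gene for each library, together with a table of exon bins that was not used here. The submitters' processing notes name Trimmomatic 0.39, STAR 2.7.5a, HTSeq 0.11.2, edgeR and the builds dm6 and BDGP6. The annotation release and the use of strand in counting are in no label, so reads of overlapping genes cannot be told apart. The deposited table holds 9027 genes, each with 10 or more counts in 1 library at least; rarer genes had been removed earlier. Each header name stands 1 field to the left of its values, and columns were matched to samples by their names; 87 of 90 samples had one. Symbols and positions came from the reference annotation BDGP6.54 (Ensembl 115), which matched 8977 genes.

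Counts were tested with edgeR 4.0.16 in R 4.3.3: filterByExpr on treatment by time (minimum count 10), TMM scaling, robust quasi-likelihood F tests and Benjamini-Hochberg adjustment over all genes tested. The standard error is the absolute log2 difference divided by the square root of F. The main model held treatment and time point in the 10 libraries; single times and their change came from group means of the same libraries. Differences at 1 h, 4 h and later came from 1 fit of all 87 libraries. CPM and log2 CPM (prior count 2) share 1 TMM scaling of all 87. Within-repeat differences are means over both times of mated minus virgin log2 CPM of the same letter. Counting error is small for well-counted genes at these depths, and larger for genes near the floor, such as *Polr1H* and *Rrp42*. Their virgin means at 2 h were 0.39 and 1.62 log2 CPM, under the 2 log2 CPM asked of the genes named for the largest differences. The errors given are between repeats.

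The repeat letters pair the samples, because the study's design text says that the whole series was repeated. Over 13 pairs of same-letter libraries the correlation of deviations from group means ran from -0.159 to 0.318 (median 0.0551), and 6 exceeded 0.1. With 2 mated repeats per time the deviations of A and B mirror each other. The mated pairs of A and of B thus give the same value (0.268), and the 13 are not separate measures. Alternatives were RLE scaling, no filter, DESeq2 1.42.0, the replicate block, a fit of all groups, repeats A and B only, and leaving out repeats or single libraries; leaving out the mated libraries of repeat A or of repeat B was added after seeing the data. Genes named were the 12 with the largest log2 difference in each direction among called genes with non-overlapping groups at both times and a mean of at least 2 log2 CPM, plus up to 4 called members of each list by smallest p, or 2 where none was called. The members and lists were chosen with earlier results of these data known. The lists for snoRNP cores, RNA polymerases, exosome, snoRNA hosts, nucleostemin and RIO families, amino acid breakdown and TOR were drawn up after values had been seen, and any gene named outside the rule was picked after them too. One further list is not reported here. The analysis was tested on simulated data.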

Additional observations from a re-analysis of the deposited data

Results flagged for a closer look

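*Cipc* stood out because its difference between wildtype-mated and virgin heads changed between the 2 time points, by the test of that change itself. The difference was 1.69 ± 0.08 at 2 h and 0.77 ± 0.08 at 3 h (log2, SE), a change of -0.92 ± 0.11 (adjusted p 0.0381 over 9018 genes in edgeR). Virgins went from 28.3, 30.2 and 30.3 CPM to 37.4, 36.1 and 32.5 CPM while mated females went from 99.2 and 92 CPM to 56.6 and 63.7 CPM, so both repeats showed the direction. At 1 h the difference was 1.36 and at 4 h 0.34.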

How the results depend on the processing

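The number of genes called moved with the setting, while all 325 genes called at 2 h and 3 h together kept their sign in every alternative, which reuse the same libraries. Against 325, DESeq2 called 509, the fit of all groups 509, the replicate block 156, and repeats A and B alone with the replicate block 112. Leaving out repeats or libraries gave 9 to 326 (18 without repeat A, 9 without repeat B, 119 without repeat C, 43 without the mated libraries of repeat A, 148 without the one at 2 h, 193 without the one at 3 h, and 187, 212 and 205 without virgin repeat A, B or C at 3 h), with fewer libraries in each fit. Against 87 calls at 2 h, DESeq2 gave 195, the fit of all groups 134 and leaving out a repeat 5 to 66. Against 294 at 3 h, leaving out a repeat gave 14 to 161. Against 1 changed gene between the times, DESeq2 gave 42, the replicate block 10, the fit of all groups 0 and leaving out a repeat 0 to 2. For SP-null-mated against virgin heads (507) leaving out a repeat gave 163 to 409, and for the mated groups (0) it gave 0 to 1 and DESeq2 3. At 1 h (48) leaving out a repeat gave 14 to 20. At 4 h (32) DESeq2 gave 56, the replicate block 94, a separate fit 103 (15.5% of them higher, against 43.8%) and leaving out a repeat 1 to 7. With DESeq2 66.8% of calls at 2 h and 3 h were higher, against 76%. The replicate block changed no direction among the called genes.

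Signs turned in genes that were not called. Across the fits without a repeat or without mated libraries, *grk* ran from -0.085 to 0.030, *Mlc1* from -0.029 to 0.27, *Rpt3* from -0.025 to 0.17, *Yp2* from -0.069 to 0.56 and *Yp1* from -0.069 to 0.43. The cause of these shifts was not tested. There were 2 mated libraries per time, and fits that leave out a repeat rest on as few as 1, which is then assumed to vary like the other groups.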

Other observations

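Among the called genes outside the lists, these were picked after their values were seen, so they stand for no pathway or count. *srl* (0.97), the fly PGC-1, measured 10.8 to 16.5 CPM in virgins and 27.1, 22.2, 34.2 and 25.2 CPM in mated females (repeats A and B at 2 h, then at 3 h), with an adjusted p of 0.00809. The difference was 0.99 within repeat A and 0.66 within repeat B. *CrebA* (0.93), a transcription factor gene of the secretory pathway, measured 26.8 to 36.9 CPM in virgins and 78.1, 67.1, 44.5 and 53.7 CPM in mated females (adjusted p 0.00496), at 0.73 within repeat A and 0.91 within repeat B. Every mated library was above every virgin in both genes. *su(r)* (0.90), an enzyme gene of pyrimidine breakdown, measured 95.4 to 148 CPM in virgins and 206 to 278 CPM in mated females (adjusted p 0.00735), at 1.21 within repeat A and 0.82 within repeat B.

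Other called genes picked in the same way were *Pop1* (1.21), a subunit of the nuclease that cuts ribosomal and transfer RNA precursors, at 1.25 within repeat A and 0.89 within repeat B, *ppan* (0.79; 0.81 and 0.75) and *Noc2* (0.79; 0.93 and 0.48), which act on the large subunit precursor. *aay* (0.66; 0.80 and 0.57) encodes the phosphatase of the last step of serine synthesis and *Miox* (0.64; 0.79 and 0.81) the enzyme that breaks inositol down. *dmGlut* (0.43), a glutamate transporter gene, was at 0.11 within repeat A and 0.66 within repeat B. *Fatp3* (-0.46; -0.51 and -0.45), a fatty acid transport protein gene, was lower.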
